A study of Oryza sativa with 18 samples.

Results

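Hanhui3 and Huhan7B are the parental lines of the rice hybrid Hanyou73, and the Hanhui3 flag leaf response to drought is described here from 6 of the 18 libraries of the study. The 3 drought libraries came from plants whose irrigation was withheld from early grain filling, and the 3 water libraries from watered plants of the same line, field, stage and time of day. The other 12 libraries hold Huhan7B and Hanyou73 under the same drought and water regimes, with 3 libraries in each group. The study asks which transcriptional changes accompany the drought resistance of the hybrid. Each library was made from pooled flag leaves of several plants of a single plot. Whether the pools of a group came from the same plot or from several is not clear from the labels. Errors and p-values thus measure the spread between pools and may not cover the spread between plots.

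The flag leaf is the main source of sugar for the filling rice grain. When water is short, abscisic acid (ABA) is made from carotenoids by NCED enzymes, binds PYL receptors that inhibit clade A PP2C phosphatases, and so frees SnRK2-type kinases, called SAPK in rice, to activate bZIP factors and their targets. Those targets include dehydrins and other LEA proteins, which protect dry cells, while sugars and proline act as compatible solutes. A leaf under drought also closes its stomata, adjusts photosynthesis and can age early.

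Hanhui3 leaves changed widely but mostly by small amounts. Of 22590 genes tested, 7934 were higher under drought (35.1%) and 4164 were lower (18.4%) by limma with Benjamini-Hochberg adjustment at 0.05, here termed called genes. The share called in either direction was 53.6%. The median gene lay 0.10 higher under drought on the log2(FPKM + 1) scale, where FPKM is fragments per kilobase of gene per M reads. Median-ratio scaling of the libraries, which lowers this median by 0.10, gave 5784 genes higher (25.6%) and 5756 lower (25.5%), so the excess of higher genes rests on the scale of the deposited values. Differences of at least 2-fold, meaning at least 1 on this log2 scale, were called for 916 genes that rose (4.05%) and 695 that fell (3.08%). With scaling the counts were 752 and 908, which turns the balance. Most of the 916 and 695 lay between 2-fold and 4-fold on this scale, and 41 that rose and 20 that fell exceeded a log2 difference of 3. Of all tested genes 7.13% passed the 2-fold limit in either direction, and in 1579 of these 1611 the drought and water libraries did not overlap. The same held for 11436 of the 12098 genes called at any size, so separation adds little to a call. Its share over all tested genes was not counted. In bulk tissue a smaller share of one cell type and less RNA per cell of that type cannot be told apart.

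In the 6 libraries FPKM summed to between 1130120 and 1140990 under drought and between 1052490 and 1108910 in water, with 19432 to 19474 and 19122 to 19229 genes at 1 FPKM or more. Depth, estimated from the steps between low values, was 13.2 to 16.2 M fragments. The most abundant gene, the metallothionein OsMT3a, took 4.18% to 4.31% of the FPKM under drought and 5.94% to 7.69% in water. Pearson's r across genes was 0.982 to 0.988 within the groups and 0.948 to 0.957 between them. Antenna protein genes, markers of green leaf, summed to 62690.0 to 64460.0 FPKM under drought, against 70620.0 to 80370.0 FPKM in water.

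The 12 largest rises and falls are given among called genes with a named product and at least 10 FPKM in the higher group. Drought and water libraries that do not overlap were also a condition, so their separation at these genes is no further result. The largest rises included genes of lipid transfer, sugar metabolism and protection. LTP2-A (Os11g0115350), a nonspecific lipid-transfer protein gene of the kind that carries lipids to the cell surface, had 236, 232 and 237 FPKM under drought, against 0.49, 0.79 and 1.72 FPKM in water. Its log2 difference was 6.93 ± 0.21 (limma, Benjamini-Hochberg adjusted p = 1e-12), and the lowest drought library stood far above the highest water library. Os07g0209100, a probable galactinol-sucrose galactosyltransferase, the enzyme type that makes raffinose, had 343, 327 and 331 FPKM under drought, against 8.92, 7.44 and 5.99 FPKM in water. It was 44.8-fold higher under drought (log2 5.32 ± 0.10, adjusted p = 5.41e-15 by limma with Benjamini-Hochberg) and was the most abundant of the 12 largest rises in the drought libraries.

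Others at the top had other functions. The lipoxygenase gene OsLOX11, whose enzyme type oxidises fatty acids, had 27.2, 25.8 and 26.2 FPKM under drought. In water it had 0.29, 0.25 and 0.09 FPKM. AO, an L-ascorbate oxidase that works in the cell wall, had 59.7, 59.7 and 55.9 FPKM under drought, against 1.59, 2.56 and 2.19 FPKM in water. Both were raised by more than a log2 of 4, at 4.50 ± 0.07 for OsLOX11 and 4.27 ± 0.11 for AO. On the same log2 scale the defensin-like gene DEFL8 rose by 4.96 ± 0.24, the S100-A9-annotated gene Os01g0910800 by 4.34 ± 0.19, and OsMFT1, a relative of the flowering regulator FT, by 3.87 ± 0.19. A WAT1-related transporter gene (Os06g0109200), the proline-rich protein gene OsRePRP2.2, the dehydrin RAB16B, OsLTP2.4 and a fructokinase-annotated locus (Os06g0232200) completed the 12 largest rises. Os06g0232200 was unsteady, with 5.88, 0 and 2.31 FPKM in water and an SE of 1.01. Its values also jumped in watered Huhan7B, at 0, 19.7 and 2.84 FPKM.

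**Figure D1:**
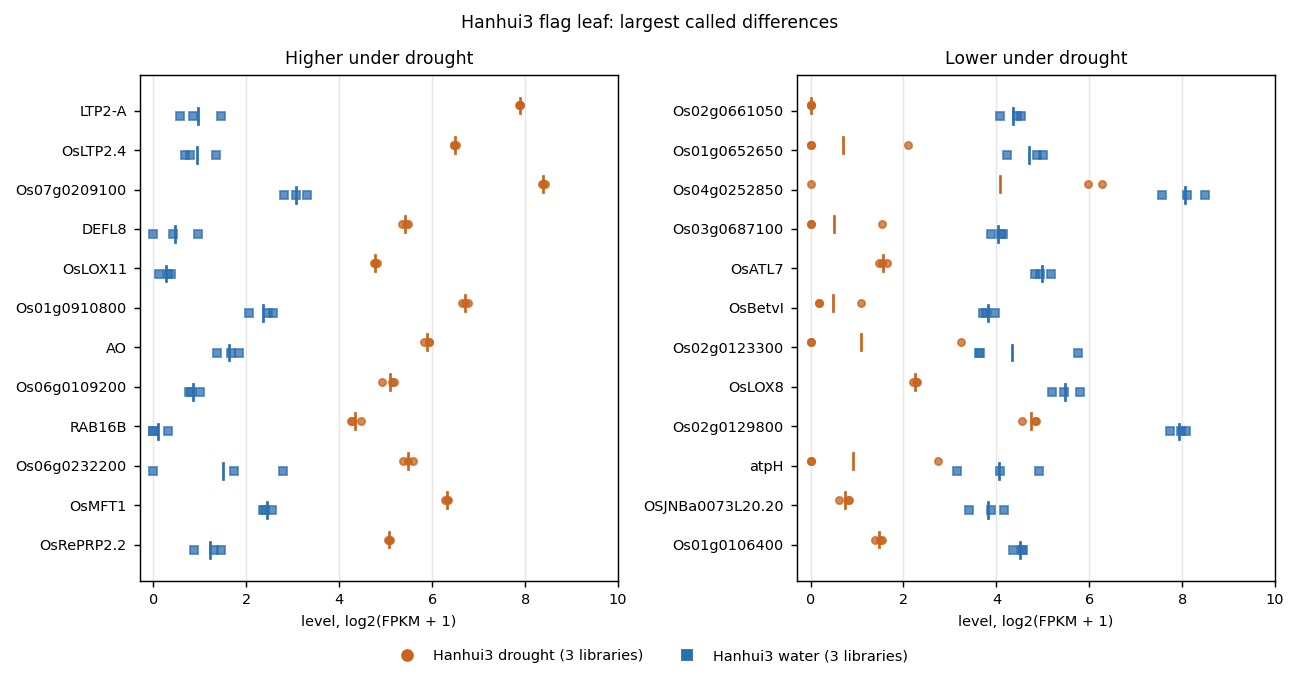
Levels in log2(FPKM + 1) of the 12 called genes per direction with the largest differences, with drought libraries as orange circles, water libraries as blue squares and the group means as vertical ticks. The drought and water points are separate in every row because groups that do not overlap were a condition for choosing these genes. A named product and a mean of at least 10 FPKM in the higher group were the other conditions. Several of the lower genes, such as Os04g0252850 and Os02g0123300, are at 0 in some drought libraries.

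The largest falls were in part at loci with unsteady values, where the assignment of reads is uncertain. Os02g0661050, Os01g0652650, Os04g0252850, Os02g0123300 and atpH were listed at 0 in at least 1 drought library, and their levels could jump between libraries of a group, as at Os04g0252850, annotated as histone H1, with 75.8, 0 and 61.7 FPKM under drought, against 358, 275 and 189 FPKM in water. Without Hanhui3 drought replicate 2 its log2 difference was -1.94, against -3.98 with all libraries. Os02g0123300 was no longer called without drought replicate 1 or 3 or water replicate 1 (limma adjusted p = 0.0830, 0.0832 and 0.0949), and atpH without drought replicate 2 or 3 or water replicate 1 (0.0536, 0.0533 and 0.0519). OsATL7, an amino acid transporter gene, had 2.11, 1.76 and 1.92 FPKM under drought, against 35.4, 29.6 and 27.3 FPKM in water, a difference of -3.43 ± 0.08 with groups far apart. OsLOX8, a plastid lipoxygenase gene, had 3.87, 3.61 and 3.82 FPKM under drought, against 54.8, 42.9 and 35.4 FPKM in water, which is 11.8-fold lower under drought. The lipoxygenase genes thus moved both ways, with OsLOX11 among the largest rises and OsLOX8 among the largest falls. Also among the 12 largest falls were the NRT1/PTR family gene Os03g0687100, the allergen-type gene OsBetvI, the isoflavone reductase homologue Os01g0106400 and the splicing factor homologue OSJNBa0073L20.20, with log2 differences between -3.52 and -3.02. Of these, Os03g0687100 was also listed at 0 in drought libraries, with 0, 0 and 1.92 FPKM, and its SE was 0.69.

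List counts here and below are to be read beside the shares over all genes tested. These were 35.1% higher and 18.4% lower, or 25.6% and 25.5% with scaling. In the ABA pathway many phosphatase, kinase and bZIP genes rose and none of them fell, while the expressed NCED synthesis genes above 1 FPKM fell. Of 11 genes of ABA synthesis and breakdown, 4 rose and 6 fell, with a median log2 difference of -0.55 against 0.10 for all genes. OsNCED1 (Os02g0704000), by far the most abundant NCED gene of these leaves, had 1394, 1300.0 and 1363 FPKM under drought, against 3489.6, 2783 and 2232 FPKM in water. Its difference was -1.04 ± 0.12 (limma, Benjamini-Hochberg adjusted p = 2.25e-06), and every drought library lay below every water library. NCED3 (Os03g0645900) had 1.69, 1.87 and 1.95 FPKM under drought, against 7.29, 6.23 and 4.68 FPKM in water, and NCED5 (log2 -1.55 ± 0.14) also fell. NCED4 was under 1 FPKM in all 6 libraries and NCED2 was listed at 0 in all 6. Among the ABA 8'-hydroxylases, which break ABA down, ABA8ox1 (log2 0.81 ± 0.10) and ABA8ox2 (0.37 ± 0.07) rose and ABA8ox3 (-0.55 ± 0.11) fell.

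Of 6 ABA receptor genes tested, OsPYL-RCAR3 rose and OsPYL-RCAR4 fell. The receptor gene OsPYL-RCAR4 had 13.2, 12.1 and 14.8 FPKM under drought, against 63.99, 63.8 and 50.4 FPKM in water, and no drought library reached the water range. Of 14 clade A PP2C genes 9 were higher and none lower, with a median of 0.69. The largest change among them was in OsPP2C49, with 49.1, 51.4 and 49.9 FPKM under drought, against 13.8, 15.98 and 15.5 FPKM in water (3.32-fold higher). OsPP2C06-OsABI2 (1.28 ± 0.05) and OsPP15 (1.04 ± 0.06) also exceeded a log2 difference of 1.

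Among the SAPK kinase genes 8 of 9 rose, with a median of 0.40, and SAPK5 had 0.11 ± 0.05 on the log2 scale (limma adjusted p = 0.0672, or 0.035 without water replicate 1). SAPK7 had 11.98, 9.65 and 9.66 FPKM under drought, against 4.52, 3.40 and 3.33 FPKM in water, and it was the single SAPK gene past 2-fold. SAPK8 rose by 0.11, which became -0.01 after median-ratio scaling, and its call was lost without drought replicate 2 or water replicate 1 (limma adjusted p = 0.0504 and 0.0562). Of 11 ABA-responsive bZIP factors 7 rose and none fell, with BZIP12 (1.70 ± 0.07), BZIP46 (1.35 ± 0.12) and BZIP23 (1.24 ± 0.07), an activator of ABA targets, past 2-fold. The scaled medians of these groups were 0.58 for the phosphatases, 0.28 for the kinases and 0.33 for the bZIP factors.

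Of 18 LEA and dehydrin genes tested, 11 were higher under drought and 1 lower, with a median of 0.57. The dehydrin genes of the RAB16 cluster, standard targets of ABA, were near 0 in water. RAB16B had 18.5, 18.00 and 21.1 FPKM under drought, against 0, 0.25 and 0 FPKM in water. Rab16A had 11.6, 10.1 and 6.64 FPKM under drought, against 0 FPKM in each library in water, and RAB16D had 3.49, 4.21 and 2.88 FPKM under drought, against 0 FPKM in each library in water. All 4 RAB16 genes were called, with drought libraries above every water library, but no fold is given against groups listed at or near 0. LEA3 had 1.58, 1.69 and 1.24 FPKM under drought, against 0, 0 and 0.12 FPKM in water. The 1 gene that fell, OsLEA24, a dehydrin 13 gene, was the most abundant of the list named here, with 1183, 1182 and 1157 FPKM under drought, against 1904, 1993 and 2115 FPKM in water.

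Among stress-response factors falls outnumbered rises. Of 7 DREB genes 2 rose and 4 fell. OsDREB1A, of a family known for activating cold and drought genes, had 8.51, 9.33 and 7.92 FPKM under drought, against 31.5, 27.3 and 23.5 FPKM in water. OsDREB1B had 4.99, 5.45 and 5.79 FPKM under drought, against 22.8, 19.6 and 18.2 FPKM in water. Both lay wholly below their water range, at -1.56 ± 0.15 and -1.72 ± 0.10 on the log2 scale. DREB2A rose by 0.41. Among 55 NAC factors 9 rose and 23 fell, with a median of -0.24, and the drought markers SNAC1 (-0.49 ± 0.07), NAC5 (-1.26 ± 0.11) and NAC6 (-0.22 ± 0.05) were all lower under drought. WRKY factors had 11 of 64 higher and 16 lower, and ERF factors 13 of 51 higher and 16 lower. Within the ERF family OsEREBP was 3.18-fold higher, with 368, 364 and 365 FPKM under drought, against 111, 115 and 119.7 FPKM in water, and OsLG3 was 7.58-fold lower. Of 14 ethylene synthesis and signalling genes 8 fell and 2 rose, and of those that rose the ACC oxidase gene Os09g0451000 rose by 2.42 ± 0.19.

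**Figure D2:**
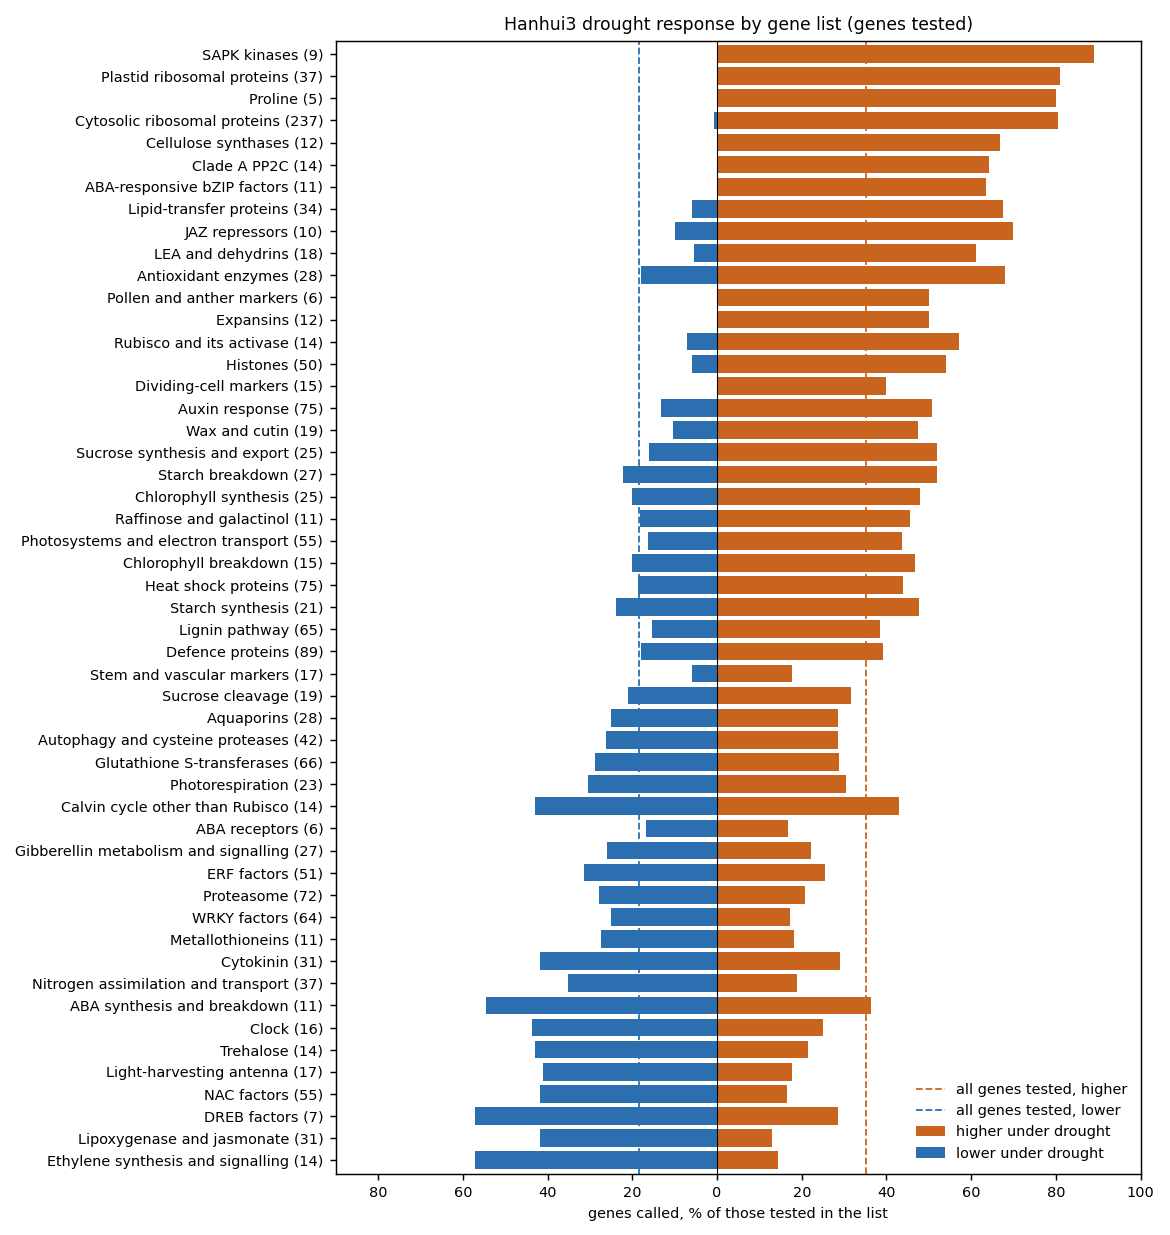
Share of the tested genes in each list that were called higher (orange, to the right) or lower (blue, to the left) under drought in Hanhui3, with dashed lines at the shares over all genes tested and the number tested in parentheses. SAPK kinases and both ribosomal protein lists have the longest bars to the right with Proline, and the bars to the left are longest for the DREB and ethylene lists.

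Sugar transporters held several of the larger rises. Of 25 genes of sucrose synthesis and export 13 rose, 4 fell and 5 of the rises were at least 2-fold, with a median of 0.43 (0.39 scaled). OsSUT1, the sucrose transporter that loads the phloem, had 102, 100.2 and 101 FPKM under drought, against 36.8, 36.9 and 37.7 FPKM in water, a difference of 1.42 ± 0.04 (limma, Benjamini-Hochberg adjusted p = 7.53e-13). The groups were tight and far apart. SWEET13, a sucrose exporter, had 16.1, 17.4 and 15.7 FPKM under drought, against 3.66, 3.12 and 2.71 FPKM in water. OsSWEET4 had 69.6, 68.6 and 67.6 FPKM under drought, against 20.2, 16.2 and 18.3 FPKM in water. Neither gene's groups overlapped. OsSWEET16 rose by 2.98 ± 0.12, while SWEET14 (listed as 11N3) rose by 0.64 ± 0.12. SWEET12 was at or under 0.06 FPKM in the 6 libraries and SWEET11 (listed as xa13) at 1.15 FPKM or less, and neither was tested.

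Starch genes moved on both the synthesis and the breakdown side. OsAGPL3, a large subunit of ADP-glucose pyrophosphorylase, which feeds starch synthesis, had 24.4, 20.99 and 22.4 FPKM under drought, against 3.82, 2.86 and 3.52 FPKM in water, and the small subunit gene OsAGPS1 was 3.35-fold higher. The starch synthase gene OsSSIIb fell by 1.06 (log2). The 21 starch synthesis genes had 10 higher and 5 lower, with a median of 0.11 that became -0.01 with scaling. Of 27 starch breakdown genes 14 rose (51.9%) and 6 fell (22.2%), beside 35.1% and 18.4% of all genes tested. The rises were led by the plastid alpha-amylase gene OsSTA30, with 18.8, 18.4 and 19.02 FPKM under drought, against 3.75, 3.78 and 4.52 FPKM in water. Sucrose synthase SUS1, which cleaves sucrose, was 4.44-fold higher and the neutral invertase OsNIN2 1.76-fold lower, within a list of 19 with 6 higher and 4 lower, or 5 and 8 with scaling, which turns the balance.

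Raffinose and galactinol genes had 5 of 11 higher (45.5%) and 2 lower (18.2%), beside 35.1% and 18.4% of all genes tested. Their median was 0.155 (0.041 scaled), against 0.103 for all genes. Besides Os07g0209100, OsGolS1, a galactinol synthase, rose by 0.84 ± 0.12. Proline genes had 4 of 5 higher and none lower. Among them OsP5CS, the committing enzyme of proline synthesis, had 47.7, 48.2 and 48.6 FPKM under drought, against 16.9, 19.5 and 19.6 FPKM in water, and the proline dehydrogenase OsProDH, which breaks proline down, rose by 0.40 ± 0.07. Trehalose genes had 3 of 14 higher and 6 lower, with OsTPS2 at -0.78 ± 0.05 and OsTPP6 at -0.58 ± 0.09.

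The list of sulfate uptake and assimilation was added after its values were seen and its counts support nothing further: of 41 genes, 14 rose and 18 fell (11 and 18 with scaling), with 1 rise and 9 falls of at least 2-fold. Os02g0129800, annotated as RESPONSE TO LOW SULFUR 3, a class known in Arabidopsis for induction by sulfur shortage, had 27.9, 22.5 and 27.3 FPKM under drought, against 211, 249 and 269 FPKM in water. It was 9.37-fold lower under drought (log2 -3.18 ± 0.09, limma with Benjamini-Hochberg adjusted p = 4.11e-13). OsAPRL1, annotated as an adenylylsulfate reductase, the enzyme that commits sulfate to reduction, had 30.8, 30.6 and 31.6 FPKM under drought, against 271, 251 and 220.2 FPKM in water. A SULFUR DEFICIENCY-INDUCED 2 gene (Os05g0506000) had 28.03, 30.8 and 29.2 FPKM under drought, against 139, 136 and 149.7 FPKM in water. In all 3 genes every drought library lay below every water library.

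Further genes of the route, chosen after their values were seen, also fell. All sulfate genes named here and in the preceding paragraph were lower under drought, and none of the 14 that rose is named. They therefore do not stand for the list, in which 34.1% rose and 43.9% fell. The cysteine synthase rcs1 was 2.11-fold lower, sulfite reductase Os05g0503300 1.69-fold lower, a second RESPONSE TO LOW SULFUR 3 gene (Os10g0509401) 2.75-fold lower and the sulfate transporter OsSultr2 had 0.16, 0.09 and 0.11 FPKM under drought, against 2.47, 2.87 and 1.86 FPKM in water.

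Nitrogen genes fell more often than they rose: of 37 tested, 7 rose and 13 fell, with 5 falls of at least 2-fold. NiR, the plastid nitrite reductase, had 33.4, 35.4 and 36.98 FPKM under drought, against 125, 114 and 87.5 FPKM in water. GLN1 (Os03g0223400), annotated as a cytosolic glutamine synthetase, had 5.24, 5.11 and 4.44 FPKM under drought, against 23.4, 27.4 and 24.3 FPKM in water. Drought and water libraries did not overlap at either gene. OsGLU, a ferredoxin-dependent glutamate synthase, fell by 0.77. Of genes chosen after their values were seen, OsNIA2 had 0.35, 0.04 and 0.27 FPKM under drought, against 4.52, 2.68 and 2.91 FPKM in water, and OsNR1 fell by 0.58. The plastid glutamine synthetase OsGLN2, with 1318, 1329.8 and 1321 FPKM under drought, against 1235, 1262 and 1301 FPKM in water, was not called (limma adjusted p = 0.0563, or 0.0181 without water replicate 3), and its log2 difference of 0.06 became -0.06 with scaling.

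**Figure D3:**
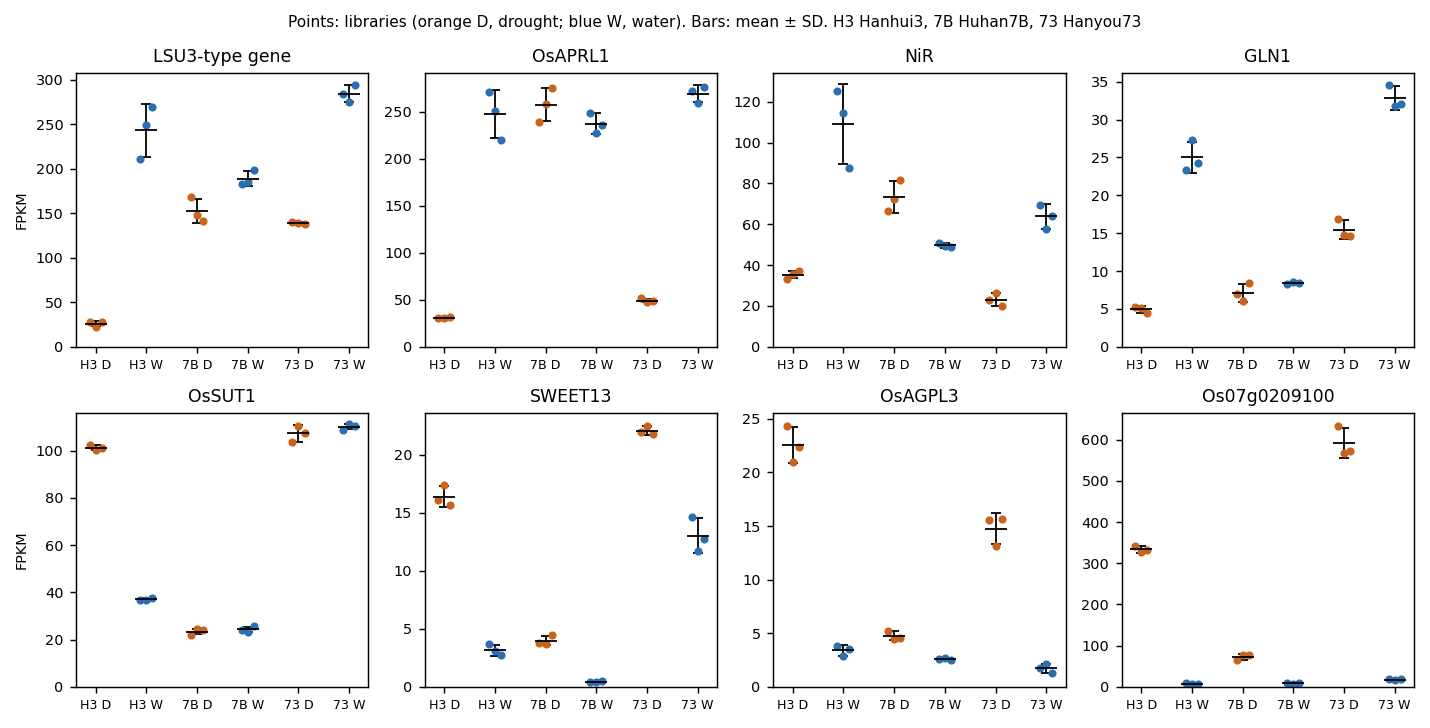
FPKM of 8 genes in the 18 libraries, with drought (D, orange) left of water (W, blue) for Hanhui3 (H3), Huhan7B (7B) and Hanyou73 (73), and the mean ± SD of 3 libraries as bars. In Hanhui3 the 4 genes of the upper row are lower under drought and the 4 of the lower row are higher, while OsSUT1 has like levels under drought and in water in both other genotypes.

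Photosynthesis genes moved both ways. Of 55 photosystem and electron transport genes 24 rose and 9 fell, with a median of 0.08 that became -0.04 with scaling, where 18 were higher and 14 lower. PSBS2, a PsbS protein that triggers the dissipation of excess light, had 222, 216 and 211 FPKM under drought, against 56.2, 53.1 and 57.5 FPKM in water. The plastid-encoded psaB and psbC were lower, at -1.91 ± 0.09 and -1.26 ± 0.06, in libraries selected for polyadenylated RNA. Of 17 light-harvesting antenna genes 3 rose and 7 fell. CAB2R, a chlorophyll-binding antenna gene and one of the most abundant transcripts, had 10146, 9695 and 9936 FPKM under drought, against 15794, 14789.5 and 12793 FPKM in water, while Lhcb1.1 was 2.06-fold higher.

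Of 14 genes of Rubisco and its activase, 8 were higher and 1 lower. RbcS3, a small subunit, had 14945, 14621 and 15084 FPKM under drought, against 6320.4, 6817 and 7001 FPKM in water, a rise of 1.15 ± 0.04. The small subunit genes are close copies, and how reads were divided among them is uncertain. The Rubisco activase OsRcaII fell by 0.57, with 7540.3, 7012 and 7239.8 FPKM under drought, against 11025, 10469 and 10872 FPKM in water. The 14 other Calvin cycle genes had 6 higher and 6 lower, or 5 and 7 with scaling, with a median of 0.03 that became -0.10 with scaling, and aldolase (Aldo) fell by 0.86. Chlorophyll breakdown genes had 7 of 15 higher (46.7%) and 3 lower (20.0%), beside 35.1% and 18.4% of all genes tested. With scaling the counts were 5 and 3, beside 25.6% and 25.5% of all genes tested. SGR, the stay-green gene that starts chlorophyll loss, had 5.42, 4.40 and 6.21 FPKM under drought, against 3.88, 1.90 and 3.27 FPKM in water (log2 0.68 ± 0.14), and it was not called in a fit of the 6 Hanhui3 libraries alone (limma adjusted p = 0.057).

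Of 28 antioxidant genes 19 were higher and 5 lower, or 14 and 6 with scaling. Cu-Zn-SOD, a superoxide dismutase, had 235, 225 and 229 FPKM under drought, against 42.8, 51.7 and 46.8 FPKM in water, and was 4.88-fold higher, while the catalase CATC was lower by 0.77. Of 66 glutathione S-transferases 19 rose and 19 fell, or 17 and 19 with scaling. Heat shock genes had 33 of 75 higher and 14 lower, or 26 and 19 with scaling, with a median of 0.11 that became -0.01 with scaling. Aquaporins had 8 of 28 higher and 7 lower, or 7 and 10 with scaling, which turns the balance, with OsTIP4 lower by 1.25. Metallothioneins had 2 of 11 higher and 3 lower, and OsMT3a itself had 47795, 47259.6 and 49152 FPKM under drought, against 62561, 80189.7 and 85259 FPKM in water (not called in a fit of the 6 Hanhui3 libraries alone, limma adjusted p = 0.109).

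Lipid-transfer proteins held the most 2-fold rises of any list in proportion to its size: of 34 tested 23 rose, 17 of them at least 2-fold, and 2 fell. Their median was 1.01 (0.93 scaled), against 0.10 for all genes. The summed level of the list was 8253 to 8461 FPKM under drought, against 2592 to 2648 FPKM in water. Much of this came from abundant genes chosen here after their values were seen. OsLTP1.12 had 1759, 1819 and 1762 FPKM under drought, against 533, 541 and 594 FPKM in water. Os11g0115400 had 1745, 1682 and 1694 FPKM under drought, against 339, 356 and 335 FPKM in water. Both were abundant in water already. OsLTP1.20 was 2.61-fold higher. The Os11g and Os12g members of this family are close copies, so the division of reads among them is uncertain.

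Among cellulose synthases and expansins every called gene rose. Cellulose synthases had 8 of 12 higher and none lower, with OsCesA1 at 14.04, 13.7 and 13.3 FPKM under drought, against 5.35, 5.54 and 5.95 FPKM in water, and OsCesA8 2.46-fold higher. The secondary-wall genes CESA7, BC6 and OsCesA4, named after their values were seen, stayed at 0.58 FPKM or less in the drought libraries. Expansins, which loosen walls, had 6 of 12 higher and none lower. OsEXP4 had 2.71, 20.9 and 2.60 FPKM under drought, against 0.06, 0.07 and 0 FPKM in water, with 1 drought library far above the others. OsEXPB3 and OsEXP2, named after their values were seen, were listed at 0 in all 3 water libraries and at 1.86 to 3.41 FPKM under drought. Auxin genes had 38 of 75 higher (50.7%) and 10 lower (13.3%), beside 35.1% and 18.4% of all genes tested. With scaling the counts were 32 and 14. Among them were the auxin carrier genes OsPIN5a, 9.71-fold lower, and PIN1A, 4.22-fold higher. OsPIN5a had 4.33, 4.00 and 4.07 FPKM under drought, against 40.6, 39.8 and 40.02 FPKM in water. In the gibberellin list, the gibberellin-inactivating oxidases GA2OX3 (1.81 ± 0.10) and OsGA2ox8 (1.65 ± 0.15) rose and OsGA2ox9 (-2.05 ± 0.15) fell.

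Lipoxygenase and jasmonate genes had 4 of 31 higher and 13 lower, while the JAZ repressors of jasmonate signalling had 7 of 10 higher and 1 lower. OsOPR1, of the 12-oxophytodienoate reductase family, fell by 1.63. Of 89 defence protein genes 35 rose (39.3%) and 16 fell (18.0%), near the 35.1% and 18.4% of all genes tested. With scaling the counts were 34 and 20, beside 25.6% and 25.5% of all genes tested. The trypsin inhibitor RBBI2-1 had 118, 112 and 115 FPKM under drought, against 13.8, 10.98 and 13.2 FPKM in water. Another inhibitor gene of that type, Os01g0127600, had 7.63, 8.85 and 7.66 FPKM under drought, against 0, 0.12 and 0 FPKM in water. Lignin pathway genes had 25 of 65 higher (38.5%) and 10 lower (15.4%), also near the shares of all genes, or 20 and 15 with scaling. OsPAL, a phenylalanine ammonia-lyase that opens the phenylpropanoid route, had 92.8, 57.9 and 51.4 FPKM under drought, against 11.7, 10.1 and 7.43 FPKM in water, and the cinnamyl alcohol dehydrogenase gene Os09g0400200 fell by 2.86.

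Ribosomal protein genes rose by small amounts in large numbers. Of 237 cytosolic ribosomal protein genes 191 rose (80.6%) and 2 fell, with a median of 0.42 and, with scaling, 161 higher, 4 lower and a median of 0.30. Of 37 plastid ribosomal protein genes 30 rose (81.1%) and none fell, with a median of 0.57. Os02g0754300, one of the more abundant of these, had 553, 558 and 527 FPKM under drought, against 319.6, 327 and 339 FPKM in water. Histones had 27 of 50 higher and 3 lower. The histone H1 gene Os04g0253000 had 1826, 1762 and 1783 FPKM under drought, against 734, 813 and 801 FPKM in water, and the H4 variant gene Os09g0553100 was 2.41-fold higher. Proteasome genes had 15 of 72 higher and 20 lower, or 7 and 30 with scaling.

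On the deposited scale, markers of other tissues had higher sums under drought than in water, with the ranges of all 4 lists apart. The median-ratio size factors, by which scaling divides, were 0.970 to 0.980 in the drought libraries and 0.872 to 0.907 in the water libraries. The sums were not scaled, so the narrow gaps of the grain and dividing-cell markers may rest on the scale. Of 63 grain markers 4 were tested and 34 were listed at 0 in all 6 libraries. Their sum was 103 to 107 FPKM under drought, against 85.7 to 94.3 FPKM in water. Pollen and anther markers summed to 22.5 to 24.9 FPKM under drought, against 14.2 to 15.8 FPKM in water, with 3 of 6 tested genes higher and 25 of 42 listed at 0. Stem and vascular markers summed to 21.98 to 25.7 FPKM under drought, against 12.5 to 13.6 FPKM in water, with 3 of 17 higher, 1 lower and 21 of 37 listed at 0. Dividing-cell markers, given beside the histone and ribosomal lists, had 6 of 15 higher and none lower (3 and 1 with scaling), with 7 of 41 at 0, and summed to 344 to 346 FPKM under drought, against 289 to 336 FPKM in water. The part of these tissues in the results above was not tested.

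The response of Hanhui3 was compared with those of the other 2 genotypes, which share no libraries with it. Across the 22590 genes its log2 differences had a Pearson's r of 0.26 with those of Huhan7B and 0.51 with those of Hanyou73, as a description across genes. At least 2-fold rises were called for 3.46% of genes in Huhan7B and 12.3% in Hanyou73, and such falls for 3.98% and 8.0%. Of the 916 genes that rose at least 2-fold in Hanhui3, 201 did so in Huhan7B (21.9% of the 916 and 25.7% of the 781 of Huhan7B), and 549 did so in Hanyou73 (59.9% of the 916 and 19.7% of the 2787 of Hanyou73). Of the 695 falls, 120 were shared with Huhan7B (17.3%, and 13.3% of its 900) and 319 with Hanyou73 (45.9%, and 17.7% of its 1807). Of the 916, 128 were called higher in neither other genotype (14.0%), and of the 695, 163 were called lower in neither (23.5%).

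The difference in response itself was called for 12035 genes against Huhan7B (53.3%), 8169 of them higher in Hanhui3 (36.2% of all tested) and 3866 lower (17.1%). Against Hanyou73 it was called for 11230 genes (49.7%), 5016 higher in Hanhui3 (22.2%) and 6214 lower (27.5%). Median-ratio scaling turned the balance against Huhan7B, to 5147 higher and 5791 lower, and left 5543 higher and 5518 lower against Hanyou73, so neither excess held under both scales. Of the 22590 genes tested, 2253 were called higher in Hanhui3 and lower in Huhan7B with the difference called, against 734 of the opposite kind. Opposite calls were required first, so the called difference adds little here. Both counts were made on the deposited scale only, where the median log2 difference was 0.103 in Hanhui3 and -0.065 in Huhan7B. Whether this excess holds with scaling was not tested.

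**Figure D4:**
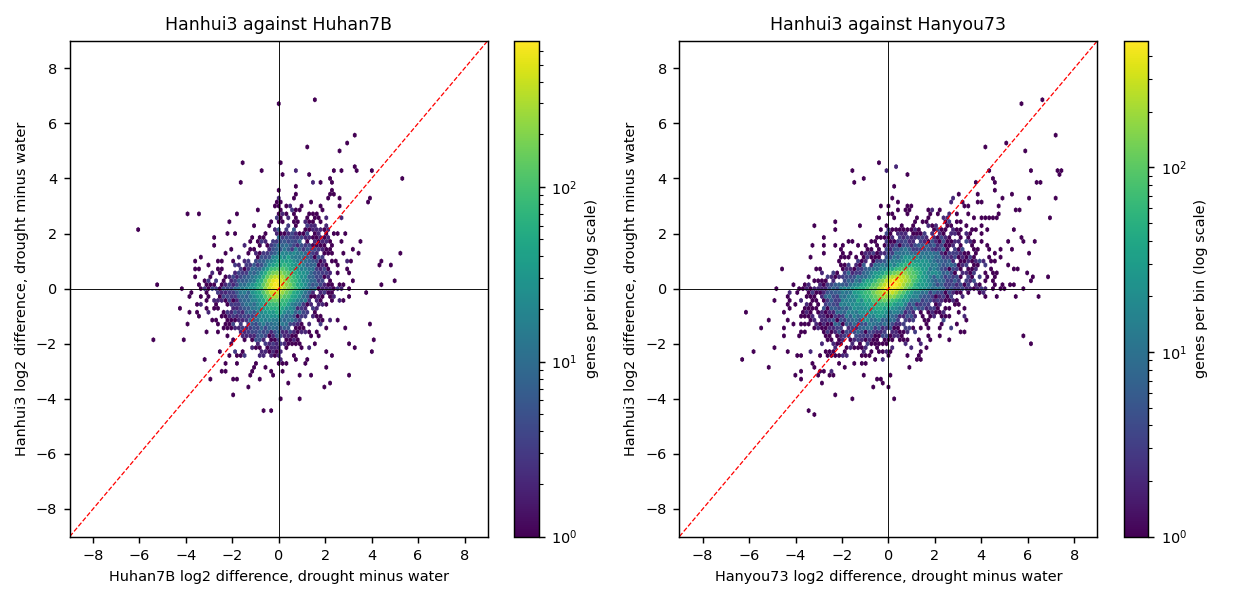
Log2 difference, drought minus water, of each tested gene in Hanhui3 (vertical axis) against that in Huhan7B (left) and Hanyou73 (right), with the number of genes per hexagon in colour and equal responses on the dashed line. The cloud is nearly round against Huhan7B (Pearson's r 0.26) and tilted but flatter than the line against Hanyou73 (0.51).

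The group responses differed between the parents in ribosomal protein, histone and antenna genes. Over all genes, 21.2% rose and 32.1% fell in Huhan7B, and 45.0% rose and 25.7% fell in Hanyou73. The response of 193 of the 237 cytosolic ribosomal protein genes was higher in Hanhui3 than in Huhan7B, where 5 rose and 171 fell, and that of 2 was lower. In Hanyou73 186 rose and 4 fell, with the response of 21 higher and 50 lower in Hanhui3 than in the hybrid, or 32 and 36 with scaling. Histones had 36 of 50 responses higher and 1 lower in Hanhui3 than in Huhan7B. The antenna genes went the other way: all 17 responses were lower in Hanhui3 than in Huhan7B, where 16 rose and none fell. Plastid ribosomal protein genes rose in 30 cases and fell in 4 in Huhan7B, with 27 of 37 responses lower and 5 higher in Hanhui3.

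Some single genes of the groups above differed sharply. OsSUT1 had 101 ± 1.08 FPKM under drought and 37.1 ± 0.47 FPKM in water in Hanhui3 (SD, n = 3 each), against 23.4 ± 1.23 and 24.3 ± 1.18 FPKM in Huhan7B and 107 ± 3.48 and 110.1 ± 1.21 FPKM in Hanyou73. Its response was higher in Hanhui3 by 1.48 ± 0.06 than in Huhan7B and by 1.46 ± 0.06 than in Hanyou73 (limma, Benjamini-Hochberg adjusted p = 3.04e-11 and 1.5e-11). In Hanhui3 the drought level came near that of the hybrid, whose levels under drought and in water were alike. OsLOX11 had 41.9, 44.98 and 50.2 FPKM under drought and 45.8, 43.5 and 43.8 FPKM in water in Huhan7B, and was already present in watered Hanyou73 at 17.8, 17.4 and 17.3 FPKM. Its response was higher in Hanhui3 by 4.47 ± 0.10 than in Huhan7B and by 4.18 ± 0.10 than in Hanyou73. Watered Hanhui3 was the one group of 6 near 0.

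NCED3 responded by -1.30 in Hanhui3, 1.28 in Huhan7B and 1.63 in Hanyou73, and its response in Hanhui3 was lower than each of the others (limma, Benjamini-Hochberg adjusted p = 1.21e-08 and 1.76e-09). OsDREB1B responded by -1.72 in Hanhui3, 0.52 in Huhan7B and 5.81 in Hanyou73, again lower in Hanhui3 than in each (adjusted p = 3.58e-09 and 2.81e-15). LEA3, at 1 to 2 FPKM in droughted Hanhui3, had 30.4, 39.9 and 43.1 FPKM in droughted Huhan7B and 153, 144 and 141 FPKM in droughted Hanyou73, and its response was lower in Hanhui3 than in each (log2 differences -3.92 and -4.86, which depend on the pseudocount). RAB16B, by contrast, responded by 4.22 in Hanhui3, 3.99 in Huhan7B and 7.26 in Hanyou73, and the difference from Huhan7B was 0.23 ± 0.16 (adjusted p = 0.244).

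**Figure D5:**
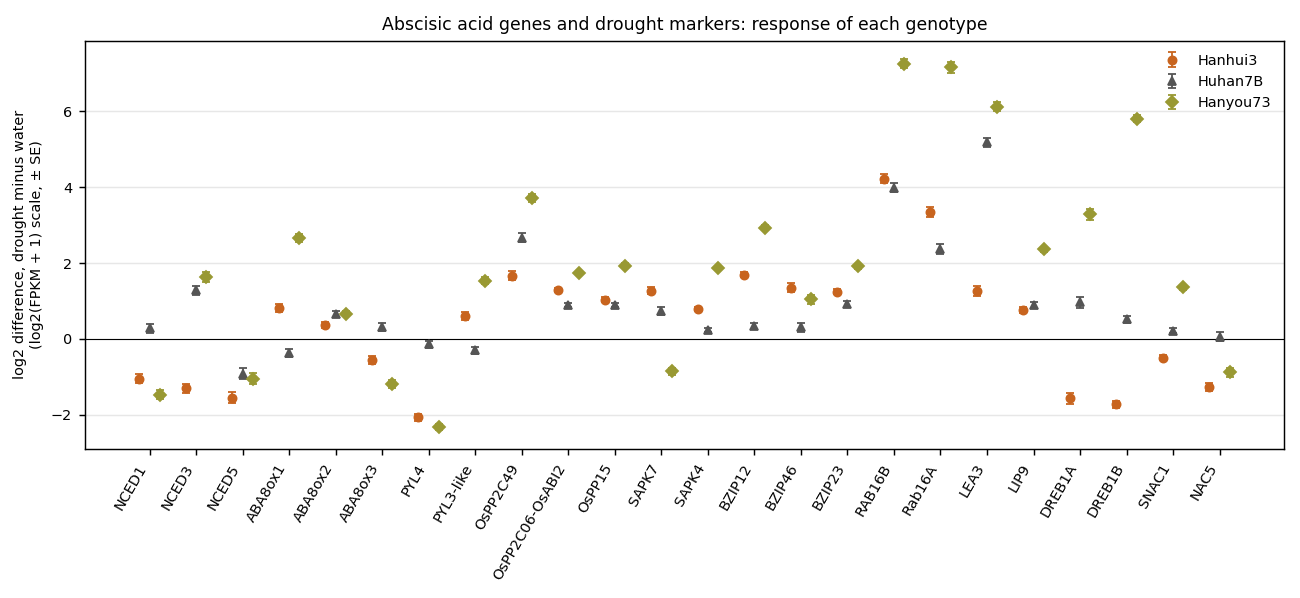
Log2 difference, drought minus water, ± SE on the log2(FPKM + 1) scale for genes of the abscisic acid pathway and standard drought markers in Hanhui3 (circles), Huhan7B (triangles) and Hanyou73 (diamonds). The Hanhui3 points for NCED3, DREB1A and DREB1B lie below 0 and below both others, and its LEA3 point lies far under the other 2.

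In the sulfate list, added after its values were seen, 18 of 41 responses were higher in Hanhui3 than in Huhan7B and 10 lower (14 and 12 with scaling), and 6 genes rose and 24 fell in Huhan7B. Single genes named above for their falls in Hanhui3 went against that balance. OsAPRL1 responded by -2.95 in Hanhui3, 0.12 in Huhan7B and -2.43 in Hanyou73, and the difference from Huhan7B was -3.07 ± 0.09 (limma, Benjamini-Hochberg adjusted p = 1.69e-12). Os05g0506000 responded by -2.23, 0.12 and -0.41 in the same order, and its response in Hanhui3 was lower than each of the others (adjusted p = 1.59e-12 and 9.47e-12 by limma with Benjamini-Hochberg). OsPOP9, a prolyl endopeptidase chosen after its values were seen, had 109.8, 111 and 113 FPKM under drought, against 663, 625 and 615 FPKM in water in Hanhui3. In Huhan7B it had 672, 694 and 703 FPKM under drought, against 300.1, 299 and 299.7 FPKM in water, so that it fell in Hanhui3 and rose in Huhan7B. Superoxide dismutase Cu-Zn-SOD rose more in Hanhui3 than in either, by 1.92 ± 0.08 against Huhan7B and 1.17 ± 0.08 against Hanyou73. Across all genes the response of Hanhui3 was called higher than both others by at least 2-fold for 426 genes and lower than both for 296. Taken singly, such a difference was called higher for 6.93% and lower for 4.11% of genes against Huhan7B, and higher for 6.37% and lower for 7.7% against Hanyou73. Both comparisons use the same Hanhui3 libraries, so they are not independent of each other.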

How the data were processed

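Per the labels' protocols, 18 stranded, paired-end libraries were made from poly(A) RNA of flag leaves. The analysis used the 6 libraries of Hanhui3 for its drought response and the other 12 for the comparison of responses and the shared estimate of spread. Per the submitters' processing notes, the authors used the tools HISAT2, RSEM, StringTie, fastp and DESeq2, the build was IRGSP-1.0, and no versions or settings are given. The deposited values are FPKM made by the authors, a unit inferred from the values, which have unequal library sums and depend on gene length. The plan assumed counts with FPKM as a fallback, and no count test was made.

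Of 38993 genes, 1017 structural RNA genes were left out and 22590 with at least 1 FPKM in 3 libraries were tested. In R 4.3.3, limma 3.58.1 was fitted with an intensity trend to log2(FPKM + 1) over 18 libraries in 6 groups, and contrasts were adjusted by Benjamini-Hochberg over all tested genes at 0.05. Log2 differences of low genes are understated by the pseudocount, and errors are moderated SE, or SD for levels. A fold given for a single gene with its value is the ratio of mean FPKM. The limit of at least 2-fold, in counts and for genes said to pass it, is a difference of at least 1 in log2(FPKM + 1). Depth was estimated from genes' low values, with 310 bases taken off the length and whole read numbers accepted within 0.1. The fit was tested on simulated data. Members and gene lists were chosen with earlier results of these data known, and the sulfate list was added after its values were seen.

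Named genes were first the 12 per direction with the largest called differences at a mean of at least 10 FPKM in the higher group. For these, groups that do not overlap and a named product were also required. Of the 22590 genes tested, 17445 had a named product. Up to 4 called genes per list at 5 FPKM or more were added. So were the 6 per direction whose response differed most from each other genotype, with the difference called. These needed a named product and a mean of at least 10 FPKM in any group compared. The 8 most abundant called genes and standard drought markers were also named. Genes outside these rules are said to be chosen after their values were seen. Alternatives were a pseudocount of 0.1, no filter, a filter at 5 FPKM, median-ratio scaling, a replicate block, the 6 Hanhui3 libraries alone, and leaving out each of them. Promoter motifs and sequences were not used here.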

Additional observations from a re-analysis of the deposited data

Results flagged for a closer look

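The drought response differed between genotypes, by a test of the difference itself (limma, Benjamini-Hochberg adjusted), for 12035 genes between Hanhui3 and Huhan7B and for 11230 between Hanhui3 and Hanyou73. The genes named below are the 6 per direction with the largest such differences among genes with a named product. A mean of at least 10 FPKM in any group compared was also required. Differences are on the log2 scale as Hanhui3 minus the other genotype.

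Against Huhan7B the response of Rir1b (Os10g0569800) was higher in Hanhui3 by 6.73, with 136, 140.2 and 134 FPKM under drought and 16.8, 17.2 and 22.5 FPKM in water in Hanhui3, against 2.64, 4.32 and 3.88 FPKM under drought and 64.6, 65.97 and 74.3 FPKM in water in Huhan7B. OsPAL (Os02g0626100) differed by 6.13, with 92.8, 57.9 and 51.4 FPKM under drought and 11.7, 10.1 and 7.43 FPKM in water in Hanhui3, against 16.3, 22.7 and 12.9 FPKM under drought and 215, 150.3 and 242 FPKM in water in Huhan7B. At Rir1b and OsPAL the parents moved in opposite directions. The response was also higher for qLTG-3-1-t (Os03g0103300) by 5.47, LTP2-A (Os11g0115350) by 5.34, RSOsPR10 (Os12g0555000) by 4.64 and OsLOX11 (Os12g0559200) by 4.47. At qLTG-3-1-t the difference lies in Huhan7B, where it fell by 5.32, while Hanhui3 had 1.11 to 2.05 FPKM in its 6 libraries.

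The response was lower in Hanhui3 than in Huhan7B for CP (Os08g0556900), a cysteine endopeptidase CEP1 gene, with a difference of -6.26 and 1.46, 1.48 and 1.33 FPKM under drought and 11.03, 10.1 and 11.7 FPKM in water in Hanhui3, against 47.6, 54.4 and 49.97 FPKM under drought and 2.66, 2.04 and 2.28 FPKM in water in Huhan7B. OsS40-2 (Os05g0518800) had -5.40, with 4.31, 0 and 5.34 FPKM under drought and 17.3, 15.5 and 7.64 FPKM in water in Hanhui3, against 13.8, 16.5 and 10.9 FPKM under drought and 1.69, 0 and 0.18 FPKM in water in Huhan7B. Its response within Hanhui3, -2.09 with all libraries, was -1.25 without Hanhui3 drought replicate 2 and was not called in a fit of the 6 Hanhui3 libraries alone (limma adjusted p = 0.079). The other 4 are also loci with libraries listed at 0 and unsteady values, for which the assignment of reads is uncertain: atpH (-6.15), psbK (Os11g0592350, -5.93), Os06g0131350 (-4.94) and Os01g0652650 (-4.88).

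Against Hanyou73 the response was higher in Hanhui3 for OsCML21 by 5.30, Os06g0232200 by 5.03, Os01g0627916 by 4.85, Os04g0612500 by 4.76, OsLAC7 by 4.43 and Os09g0530350 by 4.22. Of these, OsCML21, Os01g0627916 and OsLAC7 were at 1.01 FPKM or less in all 6 Hanhui3 libraries, and Os09g0530350 and Os06g0232200 had 1 Hanhui3 water library at 0. Os04g0612500, a proline-rich protein gene, rose in Hanhui3 and fell in the hybrid, with 24.9, 30.6 and 26.8 FPKM under drought and 9.70, 8.85 and 7.67 FPKM in water in Hanhui3, against 1.39, 1.61 and 1.92 FPKM under drought and 24.6, 19.3 and 26.8 FPKM in water in Hanyou73.

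The response was lower in Hanhui3 than in Hanyou73 for Os01g0186900 (-8.06), OsDREB1B (-7.53), ERF102 (-6.73), OsPR4c (-5.78), OsUCL16 (-5.76) and prx71 (-5.22). At Os01g0186900 and OsDREB1B Hanhui3 fell while the hybrid rose, with 6.27, 3.78 and 3.70 FPKM under drought and 22.2, 18.9 and 21.1 FPKM in water in Hanhui3, against 638, 565 and 601 FPKM under drought and 9.89, 6.19 and 8.22 FPKM in water in Hanyou73 at Os01g0186900. ERF102, OsPR4c, OsUCL16 and prx71 were at 5.33 FPKM or less in every Hanhui3 library and rose in the hybrid. No group here has over 3 libraries, so outlying single libraries were not looked for by a test.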

How the results depend on the processing

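With a pseudocount of 0.1 the number of genes at least 2-fold higher under drought was 1572 and the number lower 1185, against 916 and 695. Median-ratio scaling turned the balance of responses against Huhan7B, with 5147 genes higher and 5791 lower in Hanhui3, where the deposited scale gave 8169 and 3866. Against Hanyou73 it gave 5543 higher and 5518 lower, where the deposited scale gave 5016 and 6214. It also turned the list medians of starch synthesis (-0.013), photosystems (-0.042), Calvin cycle (-0.098) and heat shock genes (-0.005), and the differences of CP12-1 (Os01g0303000, -0.004), SAPK8 (Os03g0764800, -0.013) and OsGLN2 (Os04g0659100, -0.064, limma adjusted p = 0.0284). These follow from the shift of all values by the scaling. A few list medians near 0 changed sign otherwise: ERF factors (0.024 without Hanhui3 water replicate 1, in a leave-one-out range of -0.086 to 0.024), nitrogen genes (0.005 without Hanhui3 drought replicate 1, in a range of -0.179 to 0.005) and gibberellin genes (-0.011 with a filter at 5 FPKM), and the cause was not tested. Leaving out each Hanhui3 library gave 7074 to 7803 genes higher and 3748 to 4037 lower, 875 to 956 and 656 to 769 at 2-fold. The difference in response ranged over 7677 to 8212 higher and 3604 to 3855 lower against Huhan7B, and 4739 to 4978 and 5780 to 6375 against Hanyou73. Of 264 called genes named by the rules or after their values were seen, 29 lost their call in at least 1 alternative, 22 of them in the fit of the 6 Hanhui3 libraries alone. That fit called 6699 genes higher and 3560 lower. Same-numbered replicates did not deviate together (r of -0.0327 to 0.0307), so the numbers are not taken as pairs, and a replicate block gave 7853 genes higher and 4116 lower. Depth was estimated and not given, so genes under about 1 FPKM rest on few fragments.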
